A study of Mus musculus with 2 samples.

Results

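Semaphorins are guidance ligands and plexins are their main receptors, and the 32 mouse genes described here were taken from this ligand and receptor family by name. They comprise 20 semaphorin genes and 12 receptor genes, namely 9 plexins, the co-receptor Nrp2, and Cd72 and Timd2, which bind semaphorins on lymphocytes. A member was found on the array when the transcript accession of a non-control probe belonged to the gene. 31 of the 32 genes had a probe, 54 probes in all, out of 18430 named genes and 41174 probes on the array. Sema3g had none.

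Semaphorins of class 3 are secreted, those of classes 4, 5 and 6 span the membrane, and Sema7a is tethered by a lipid anchor. Plexins carry an intracellular domain that acts on small GTPases of the Ras and Rap families, and secreted semaphorins mostly need a neuropilin beside the plexin. In the immune system Sema4d (CD100) and Sema4a act between T cells and antigen-presenting cells, and Sema7a of activated T cells acts on monocytes through integrins.

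RNA of CD4 T cells of 2 genotypes, Menin WT and Menin KO, was hybridised to 1 one-colour array each. Both came from the spleens of female C57BL/6J mice. Naive cells (CD4+CD62L+) were activated for 2 days by plate-bound anti-TCR-β (3 µg/ml) and anti-CD28 (1 µg/ml) with IL-2 (2.5 ng/ml), and then grown on with IL-2 for 3 days. The sources used here give neither the deleted part of Men1, nor the Cre driver, nor the age or number of mice or cultures behind an array. The comparison asks how these genes differed when Menin, a scaffold of histone methyltransferase complexes, was missing.

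With 1 array per genotype nothing was tested and no difference has a p-value. Every difference is KO minus WT on the log2 scale, after each array was set to its own 75th percentile of signal. Signals are the scanner software's processed intensities in arbitrary units, given with the software's own error for that spot. That error covers 1 spot and leaves out mice, cultures and labelling. Repeated spots of 1 probe gave the other gauge. The difference scattered between spots with a pooled SD of 0.504 at signals under 30 (8 probes), 0.242 from 30 to 100 (26 probes), 0.0768 from 100 to 1000 (42 probes) and 0.0383 above (70 probes). A gene counted as higher or lower when it was at least 2-fold apart. Where 1 array was not well above background, only a bound ("at least") is given. The number of arrays limits the precision, and less RNA per cell cannot be told apart from fewer cells making it.

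Men1 itself gave 1081 signal units (WT) and 459 (KO), and Bach2, the other gene of the series title, 4643 and 604. The defining T cell markers were bright on both arrays: Thy1 read 132209 in WT and 119433 in KO, and Cd3d 62714 and 55593. Of 10 such markers, 8 were below 0, as were 6600 of the 12475 named genes read on both arrays. At least 2-fold lower in KO were 2 of the 10, beside 4.51% of those genes: Cd5 (55133 and 16739) and Cd2 (21038 and 9171). Cd4 read 443 in WT and 279 in KO, while Cd8a, the marker of CD8 T cells, read 312 and 3213.

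By the software's processed signals, more semaphorin and receptor genes were higher than lower on the KO array, but not under every background model. Of the 31 genes with a probe, 26 were detected well above background somewhere, 23 of them on both arrays. Among the 23, 10 were at least 2-fold higher in KO, against 8.86% of all 12475 named genes read on both arrays, and 1 was at least 2-fold lower, against 4.51%. The other 12 lay between. Counting bounds as well, 10 were higher and 2 lower, beside 10.8% and 5.14% of 13510 genes. The median difference of the 23 was 0.67, and that of all 12475 genes -0.03. These counts describe 2 arrays and rest partly on dim spots. When the background was modelled with normexp, after 6 WT spots with aberrant local background had been set to the array's median, the counts of higher genes became 2 for semaphorins and 3 for receptors instead of 5 and 5, while the share of all genes called higher became 5.75%. With the backgrounds as given, the background mean that normexp fitted was -140.5 for WT, against -1.60 for KO. Replacing the 6 spots moved the WT fit to -12.9, so the values with backgrounds as given rest largely on those spots. With them the direction was lost: 2 semaphorins were higher and 4 lower, 3 receptors were higher and 2 lower, and the medians were -0.29 and -0.035. Of all genes, 4.72% were then higher and 13.2% lower. Under both settings normexp added an offset of 50 to every signal, which by itself draws differences between dim spots toward 0.

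**Figure D1:**
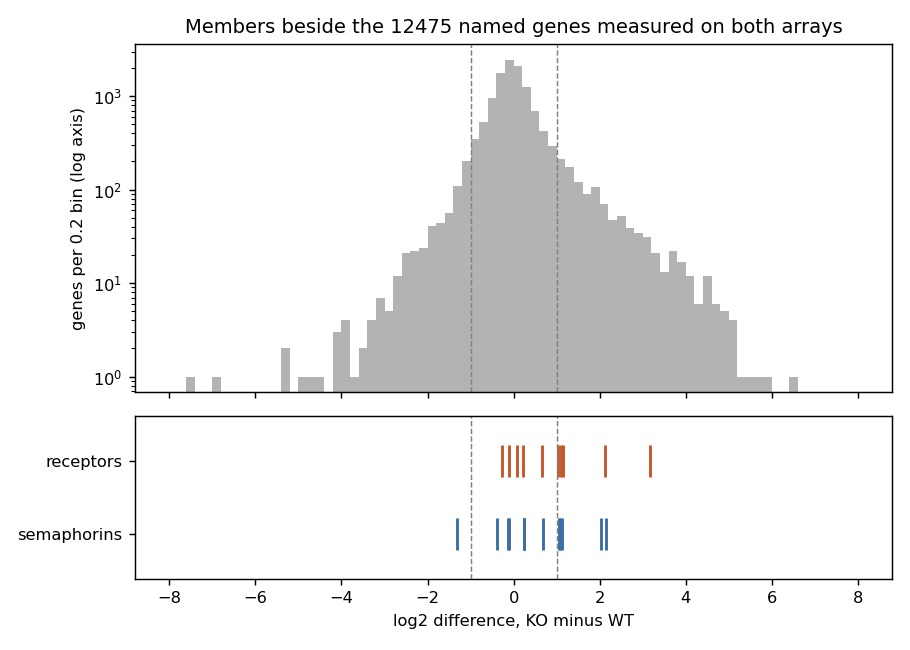
Upper panel: histogram of the log2 difference (KO minus WT) of the 12475 named genes read on both arrays, in bins of 0.2 on a log count axis. Lower panel: 1 tick per semaphorin or receptor gene read on both arrays, with dashed lines at 2-fold. The ticks lie between -1.33 (Sema7a) and 3.17 (Nrp2), and 17 of 23 are above 0.

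Ligands and receptors are given apart. The 13 semaphorins read on both arrays ran from -1.33 to 2.16 with a median of 0.24, and 9 were above 0. The 10 receptors ran from -0.27 to 3.17 with a median of 0.85, and 8 were above 0. Of all genes read on both arrays, 47.1% were above 0. No receptor gene was at least 2-fold lower by the probe chosen for it, where 4.51% of all genes were, a share too small to be read from 10 genes. After normexp with backgrounds as given, 2 receptors were lower, Plxna4 (-1.18) and Plxnb1 (-1.10).

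**Figure D2:**
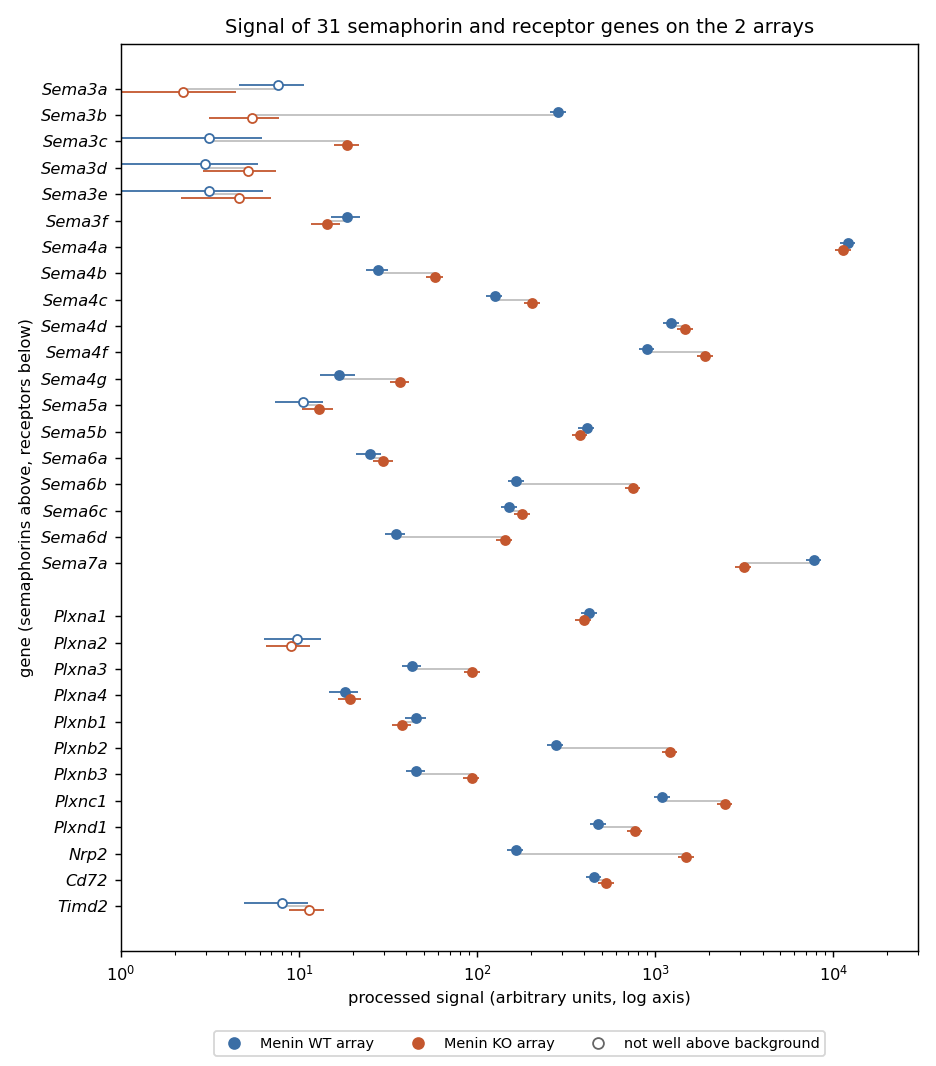
Processed signal (log axis, arbitrary units) of the 31 member genes with a probe on the WT array (blue) and the KO array (orange), 1 probe per gene. Bars are the scanner software's error of the spot, cut off at the axis edge for the dimmest, and open circles are not well above background. Sema3b has the widest gap toward WT in this plot, and Nrp2, Sema6b, Plxnb2 and Sema6d are the widest toward KO among genes read on both arrays.

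Among the ligands, the secreted class 3 was mostly near background. Sema3a, Sema3d and Sema3e, chemorepellents of growing axons and vessels, lacked a reading above background, with no probe over a signal of 7.59. Sema3f read 18.6 ± 3.43 in WT and 14.3 ± 2.60 in KO, a difference of -0.39 that was below the scatter of spots as dim as these. After normexp with backgrounds as given, the Sema3f difference was -1.20. Sema3c read 3.11 in WT, not above background, and 18.6 ± 3.01 in KO. That gives a bound of at least 1.32-fold higher, which does not settle on which side of 2-fold the gene lies. Taken at its measured WT value, with no filter on dim probes, the difference was 2.57.

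Sema3b was the exception of class 3. It encodes a secreted semaphorin that signals through neuropilins. Its only probe read 285 ± 28.7 in WT and 5.44 ± 2.33 in KO, where it was not well above background. It was therefore at least 27.7-fold lower in KO. This difference rests on 1 spot per array. After normexp with the aberrant backgrounds replaced it was -2.47, still beyond 2-fold but smaller than that of Nrp2 (2.69). Sema3b lies beside Gnai2 in the genome, and Gnai2, encoding an inhibitory G protein subunit, read 16645 in WT and 16605 in KO.

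Class 4 holds the semaphorins best known from lymphocytes, and the levels of its immune members were nearly equal. Sema4a, which costimulates T cells and is made by activated T cells, read 12078 ± 1208 in WT and 11345 ± 1135 in KO, a difference of -0.10. Sema4d, constitutive on T cells, was read by 2 probes, at 1231 and 336 in WT and at 1471 and 454 in KO, and differed by 0.24 and 0.42. Neither gene reached 1.5-fold by any probe. The other 4 genes of the class had positive differences, 3 of them beyond 2-fold.

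Sema4f, best known from neurons, read 895 ± 89.5 in WT and 1911 ± 191 in KO. It was 2.12-fold higher. It stayed at least 2-fold higher under all 10 ways of processing the signals that were tried, from 1.01 to 1.16. Not all of these could move it: with 1 probe read on both arrays, the filters and the mean over probes left 1.08 unchanged. Median centring, the authors' values and kept outlier flags shifted all genes nearly alike. Sema4c, a ligand of Plxnb2, was read by 2 probes and differed by 0.69 and 0.85, short of 2-fold (126 and 88.8 in WT, 204 and 162 in KO), and by -0.02 after normexp with backgrounds as given. Sema4b read 27.7 ± 4.01 in WT and 57.9 ± 6.19 in KO (2.07-fold higher). Sema4g read 16.8 ± 3.73 and 36.8 ± 4.44 (2.17-fold higher). The last pair are dim, and their calls were not stable. Normexp gave 0.24 for Sema4b and 0.07 for Sema4g with the aberrant backgrounds replaced, and -0.66 and -0.98 with backgrounds as given. Sema4b also came to 0.95 and 0.97 with quantile and median scaling.

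Class 5 semaphorins carry thrombospondin repeats. Sema5b differed by -0.14, with 411 ± 41.2 in WT and 378 ± 37.8 in KO, by the only 1 of its 3 probes above background. Sema5a read 10.5 ± 3.15 in WT, not above background, and only just passed that limit in KO, so it has no usable difference.

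Class 6 held the ligands that were furthest above WT. Sema6b, a transmembrane ligand of the plexin A receptors, read 166 ± 16.8 in WT and 746 ± 74.7 in KO, so that it was 4.46-fold higher, and between 1.37 and 2.27 on the log2 scale under the 10 alternatives. Sema6d, a partner of Plxna1 in immune and cardiac cells, read 34.8 ± 4.61 on the WT array against 143 ± 14.5 on the KO array, and was 4.06-fold higher. For this dimmer gene the value was 0.97 with the replaced normexp backgrounds and 0.06 with the backgrounds as given. A second Sema6d probe, made to another transcript, stayed below the background limit. Sema6a (24.9 ± 3.99 and 29.7 ± 3.79) and Sema6c (151 and 179) differed by 0.24 and 0.23, and by -1.06 and -0.35 after normexp with backgrounds as given. Class 6 was thus split, with 2 of its 4 genes about 4-fold apart and 2 nearly level.

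Sema7a was the 1 ligand read on both arrays that was at least 2-fold lower. It encodes the lipid-anchored semaphorin that activated T cells present to monocytes and macrophages. Its single probe read 7781 ± 778 in WT and 3131 ± 313 in KO, 2.51-fold lower. Both signals are bright, and the difference lay between -1.40 and -1.09 under the 10 alternatives. The 2 genes that follow it on the chromosome were higher in KO: Cyp11a1, encoding the enzyme that begins steroid synthesis, by 1.53 and Ccdc33 by 1.38. Its neighbour on the other side, Ubl7, differed by -0.77.

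Turning to the receptors, plexin A genes mostly stayed within 2-fold. Plxna1, the receptor that binds class 6 ligands and pairs with neuropilins, was read by 2 probes of opposite sign. The chosen probe read 425 ± 42.6 in WT and 396 ± 39.7 in KO (-0.12). The other read 152 ± 15.5 and 289 ± 29.0 (0.91). The probes do not settle a direction for this gene. Plxna3, a receptor of class 3 semaphorins with neuropilins, read 43.1 ± 5.26 in WT and 93.7 ± 9.65 in KO. It was 2.16-fold higher, but its log2 difference was 0.47 with the replaced normexp backgrounds and -0.39 with those as given. Plxna4 read 18.1 ± 3.41 and 19.4 ± 2.93, near the detection limit. It differed by 0.09, and by -1.18 after normexp with backgrounds as given. Plxna2 was not well above background by any of its 3 probes.

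Plexin B genes, the receptors of class 4 ligands, went different ways. Plxnb2, which binds Sema4c and Sema4d, read 276 ± 27.7 in WT and 1209 ± 121 in KO. It was 4.35-fold higher. Its other probe was above background in KO only, at 24.2 ± 3.25, and gave a bound of at least 1.71-fold. Under the 10 alternatives the difference stayed between 1.45 and 2.22. Plxnb3 read 45.2 ± 5.45 in WT and 93.2 ± 9.61 in KO, 2.04-fold higher, a log2 difference of 1.03 that became 0.38 with the replaced normexp backgrounds and -0.43 with those as given. Quantile and median scaling put it at 0.97 and 0.96. Plxnb1, the high-affinity receptor of Sema4d, was below WT by both probes, with differences of -0.27 (45.4 and 38.0) and -1.38 (38.2 and 14.9). The second value alone passes 2-fold, and it is read near the limit.

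Plxnc1 is the plexin that binds Sema7a. It was read by 2 probes that gave the same answer, 1095 ± 110 in WT and 2452 ± 245 in KO by the first, and 239 ± 24.1 and 540 ± 54.0 by the second. The differences were 1.15 and 1.16, or 2.22-fold and 2.24-fold higher. Of the 8 members with several readable probes this pair had the smallest gap, 0.0117. Ligand and plexin of this pair therefore differed in opposite directions between the arrays. Plxnd1, a receptor of Sema3e, read 479 ± 48.0 in WT and 769 ± 77.0 in KO and differed by 0.67, short of 2-fold.

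Nrp2, the neuropilin that serves as co-receptor for secreted semaphorins and for lymphatic growth factors, had the largest difference toward KO of all members. It read 165 ± 16.7 in WT and 1493 ± 149 in KO, 8.99-fold higher, and from 2.33 to 3.27 under the 10 alternatives. It was read by 1 probe. Its paralogue Nrp1, from the pathway list, read 155 in WT and 154 in KO by 1 probe and 98.8 and 126 by the other.

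The lymphocyte receptors outside the plexin family stayed level or near background. Cd72, the inhibitory Sema4d receptor of B cells, was read by 2 probes, at 452 ± 45.3 and 335 ± 33.7 in WT and at 532 ± 53.2 and 402 ± 40.3 in KO, and differed by 0.22 and 0.25. Timd2, a mouse receptor of Sema4a, was not well above background by either probe.

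**Figure D3:**
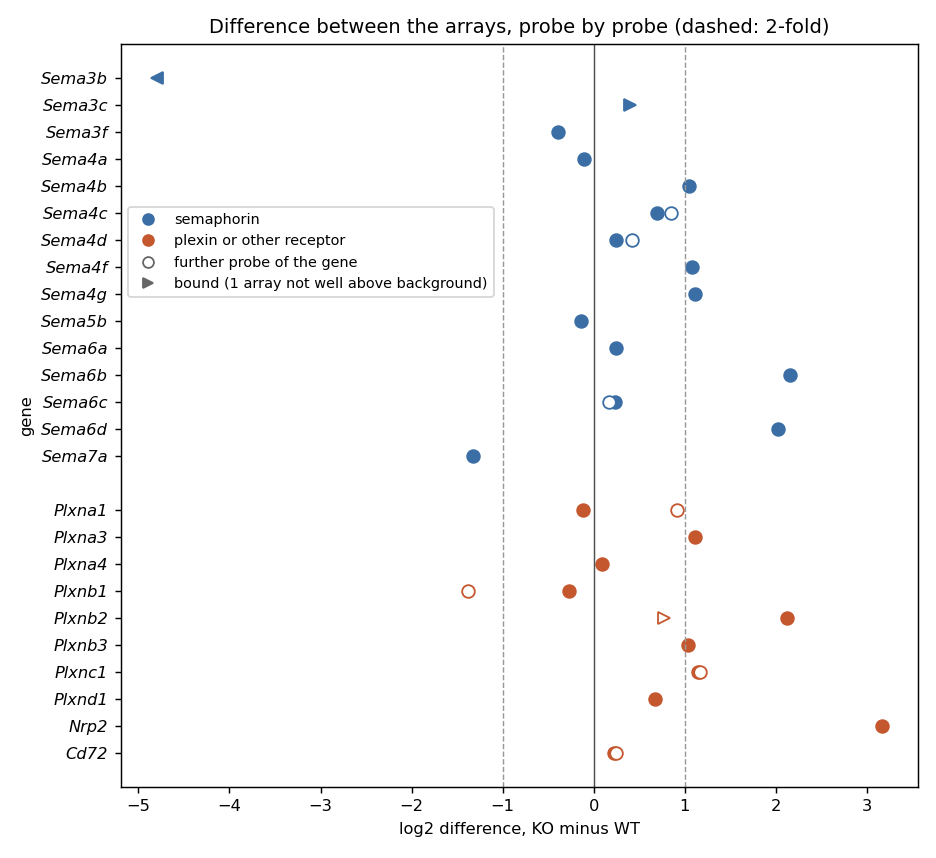
Log2 difference (KO minus WT) for every member probe with a usable value. Filled symbols are the probe chosen for the gene, open symbols further probes, arrowheads bounds, and dashed lines 2-fold. Both Plxnc1 probes sit at 1.15 and 1.16, whereas the Plxna1 probes sit at -0.12 and 0.91 and the Plxnb1 probes at -0.27 and -1.38.

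Several members lie close to the 2-fold limit, so their counts turn on small shifts. Just above it were Plxnb3 (1.03), Sema4b (1.05), Sema4f (1.08), Plxna3 (1.11), Sema4g (1.12) and Plxnc1 (1.15). Just below it came Sema4c (0.69) and Plxnd1 (0.67). Of the 6 genes above, Sema4f and Plxnc1 kept their side of the limit under all 10 alternatives. Nrp2, Plxnb2, Sema6b, Sema7a and Sema3b also stayed beyond it under every alternative run for them. For a gene with 1 probe read on both arrays, the filters and the mean over probes could not change the value.

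**Figure D4:**
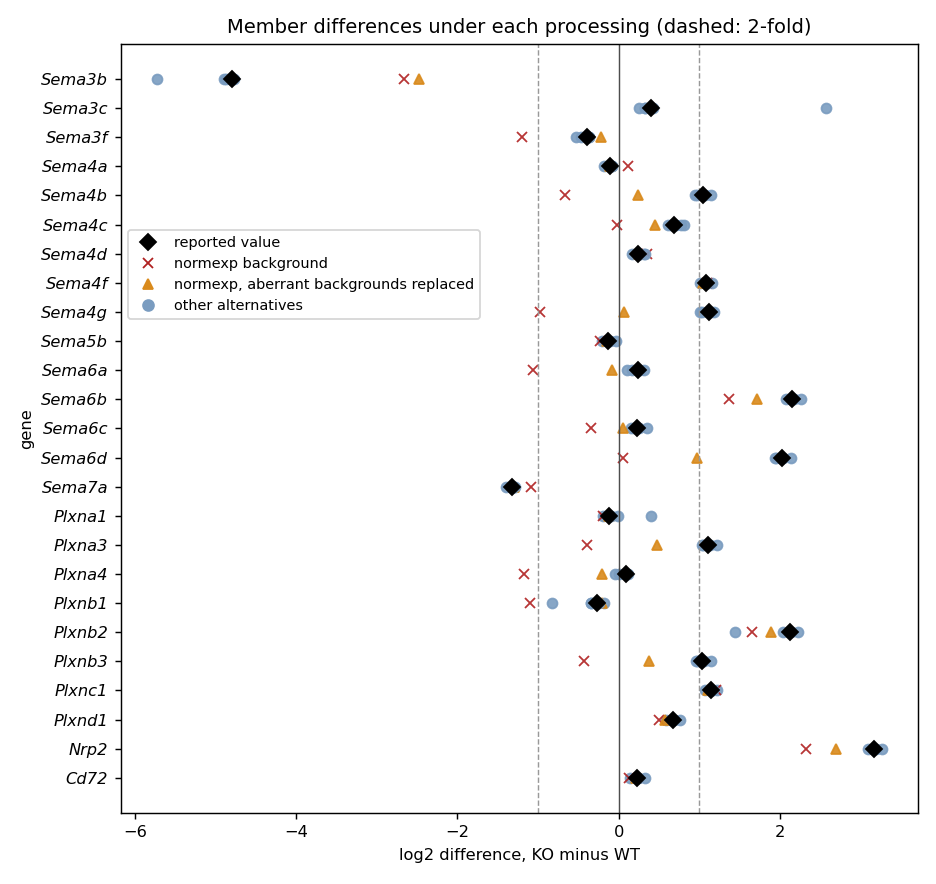
Log2 difference (KO minus WT) of each member as reported (black diamonds) and under each alternative processing: normexp background (red crosses), normexp with aberrant backgrounds replaced (orange triangles) and all others (blue circles). Dashed lines mark 2-fold. The crosses pull dim genes such as Sema4g (-0.98) and Plxnb3 (-0.43) below 0, and leave Nrp2 at 2.33 and Sema7a at -1.09.

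Set side by side as known ligand and receptor pairs, the members went in mixed directions. For Sema4d, the ligand differed by 0.24, its receptor Plxnb1 by -0.27, Plxnb2 by 2.12 and Cd72 by 0.22. Sema4c and its receptor Plxnb2 differed by 0.69 and 2.12. For Sema6d and Plxna1 the ligand was higher by 2.02 and the receptor had no settled direction. For the secreted class the co-receptor Nrp2 was higher by 3.17 while Sema3b was at least 27.7-fold lower. The other neuropilin, Nrp1, differed by -0.02 by 1 probe and by 0.33 by the other. For Sema7a the plexin was higher by 1.15, the ligand differed by -1.33, and the integrin chain Itgb1, part of its other receptor, differed by 0.24. Itga1, the partner chain, was read by 3 probes: the chosen probe differed by 0.06, while the others were above background in KO only and gave at least 2.96-fold and 3.42-fold higher.

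The promoters of Nrp2, Sema6b, Plxnb2 and Sema7a are printed. Among members read on both arrays and beyond 2-fold under all 10 alternatives, these 4 differed most. They are shown because no probe sequence is given in the files, and because Bach2 and AP-1 factors share a short core site, TGANTCA, that can be looked for in them. Windows run from 250 bases before to 50 after a RefSeq transcription start (GRCm38.p6, in the direction of the gene), and capitals mark TGANTCA on either strand. The Sema6b windows are chr17:56133803-56134102 (inner start, minus strand) and chr17:56140294-56140593 (outer start, minus strand). The others are Sema7a at chr9:57939862-57940161 (plus strand), Nrp2 at chr1:62703067-62703366 (plus strand), and Plxnb2 at chr15:89180739-89181038 (minus strand, the outer of its starts).
Sema6b inner: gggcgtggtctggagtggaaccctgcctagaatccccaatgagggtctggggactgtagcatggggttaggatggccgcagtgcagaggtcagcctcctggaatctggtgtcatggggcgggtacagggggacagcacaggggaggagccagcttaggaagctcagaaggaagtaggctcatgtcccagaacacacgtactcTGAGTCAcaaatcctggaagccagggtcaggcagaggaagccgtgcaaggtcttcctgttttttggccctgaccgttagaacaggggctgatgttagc
Sema6b outer: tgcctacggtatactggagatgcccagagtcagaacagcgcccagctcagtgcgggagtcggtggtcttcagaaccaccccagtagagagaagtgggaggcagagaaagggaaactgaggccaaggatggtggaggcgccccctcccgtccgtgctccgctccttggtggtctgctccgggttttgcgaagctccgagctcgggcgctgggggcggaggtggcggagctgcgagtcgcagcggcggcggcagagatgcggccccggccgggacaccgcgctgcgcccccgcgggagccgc
Sema7a: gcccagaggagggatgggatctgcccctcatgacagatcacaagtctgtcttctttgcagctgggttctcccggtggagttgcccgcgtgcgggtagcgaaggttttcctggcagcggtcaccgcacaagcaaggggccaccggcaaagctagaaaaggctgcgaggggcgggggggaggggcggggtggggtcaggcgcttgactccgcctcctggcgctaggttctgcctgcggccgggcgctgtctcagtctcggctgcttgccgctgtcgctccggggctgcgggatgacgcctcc
Nrp2: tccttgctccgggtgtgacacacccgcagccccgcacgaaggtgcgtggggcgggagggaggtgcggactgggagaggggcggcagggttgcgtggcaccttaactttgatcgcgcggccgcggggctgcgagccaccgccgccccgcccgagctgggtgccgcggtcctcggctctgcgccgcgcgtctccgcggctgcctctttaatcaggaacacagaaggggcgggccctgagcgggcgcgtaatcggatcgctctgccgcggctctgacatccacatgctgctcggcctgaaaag
Plxnb2 outer: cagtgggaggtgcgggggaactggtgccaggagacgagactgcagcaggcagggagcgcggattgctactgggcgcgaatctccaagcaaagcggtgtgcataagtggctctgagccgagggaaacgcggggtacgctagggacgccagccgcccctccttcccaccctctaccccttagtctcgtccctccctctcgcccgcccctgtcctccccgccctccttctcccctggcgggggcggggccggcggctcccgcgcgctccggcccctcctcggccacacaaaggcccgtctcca

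The inner Sema6b window holds 1 TGANTCA match, starting 48 bases before the start site, and the other printed windows hold none. Of the 27 members with a window outside the one chromosome left out here, 3 had a match in any window (Sema4c, Sema4d and Sema6b), beside 8.97% of all 27025 genes. A site of GATA factors, AGATAA, was in none of the 27, beside 12.7% of all genes. The 39 member windows were rich in CpG, with a median of 14 CpG pairs in 300 bases against 7 over all windows. Their median G and C content was 61.7% against 52.7%. A match is a run of letters and not a bound site, and no match says only that these letters are not in this window. Sema3b, Sema3f, Plxna1 and Plxna4 had no window to search.

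The genes beside the members were called about as often as genes in general. Around the 12 members at least 2-fold apart there were 72 neighbouring protein-coding genes, 3 on each side, of which 62 had a value. Of these 5 were at least 2-fold higher (8.06%, beside 10.8% of all genes), 4 lower (6.45%, beside 5.14%) and 53 between. Mapk12, a p38 kinase gene near Plxnb2, was higher by 1.66. Near Plxnc1, which was higher, Tmcc3 and the cytokine signalling inhibitor Socs2 were lower, with differences of -2.56 and -1.05. The nearest neighbours of Sema6b, Lrg1 and Tnfaip8l1, differed by -0.12 and -1.02.

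Partners of semaphorin signalling were also read, from a list of 69 genes that hold receptor partners, intracellular effectors and processing enzymes. Of these 66 had a probe and 62 were detected. At least 2-fold higher in KO were 13 (10.8% of all genes), at least 2-fold lower 2 (5.14% of all genes), between 45, and 2 had a bound under 2-fold. Normexp gave 8 higher and 1 lower with the aberrant backgrounds replaced (5.75% and 2.79% of all genes). With backgrounds as given it gave 4 higher and 4 lower (4.72% and 13.2% of all genes). Of the 54 read on both arrays 8 were higher and 1 lower (8.86% and 4.51% of all genes), and their median was 0.23.

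Of the 37 intracellular partners detected, 31 (83.8%) were not 2-fold apart, the same share as over all genes (84.1%). The actin regulators Rac1 (0.23) and Rhoa (-0.17), the cofilin gene Cfl1 (0.11), the redox enzyme gene Mical1 (0.39) and the collapsin response mediator Dpysl2 (-0.26) lay within 1.5-fold. The 3 Rnd genes, picked after their values were seen, encode GTPases that bind plexin tails. Rnd2 read 101 in WT and 401 in KO (3.95-fold higher). Rnd3 was not above background in WT and read 176 in KO, at least 12.4-fold higher by the brightest probe and at least 2.38-fold by another, while the remaining probe had no usable bound. Rnd1 differed by 0.98, short of 2-fold. Rras, a target of the plexin GTPase-activating domain, read 1321 in WT and 3552 in KO (2.66-fold higher), while its relative Rras2 read 13017 and 6405 (2.05-fold lower, with differences of -0.67 and -0.59 by its other probes). Mical2 was above background in KO only and at least 5.54-fold higher.

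Receptor partners with large differences were Havcr2, encoding TIM-3 of the Timd2 family (log2 difference 4.28), the neural adhesion gene Chl1 (at least 6.92-fold higher), the adaptor Tyrobp (2.27), the growth factor receptor genes Flt1 (at least 2.82-fold) and Mst1r (at least 2.45-fold), and Kdr (at least 2.60-fold lower). Kdr was printed in 10 spots on each array, with a mean of 26.8 in WT and 8.02 in KO. Met gave 39.1 and 48.1 by its chosen probe, while another probe was above background in KO only, at least 6.58-fold higher. Among processing enzymes, the proprotein convertase gene Furin, whose product cleaves class 3 semaphorins, read 2770 in WT and 7633 in KO (2.73-fold higher). Mmp14, a membrane metalloprotease that sheds Sema4d in tumour cells, read 18.7 and 55.7 (2.95-fold higher), and Adam17 differed by -0.05.

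**Figure D5:**
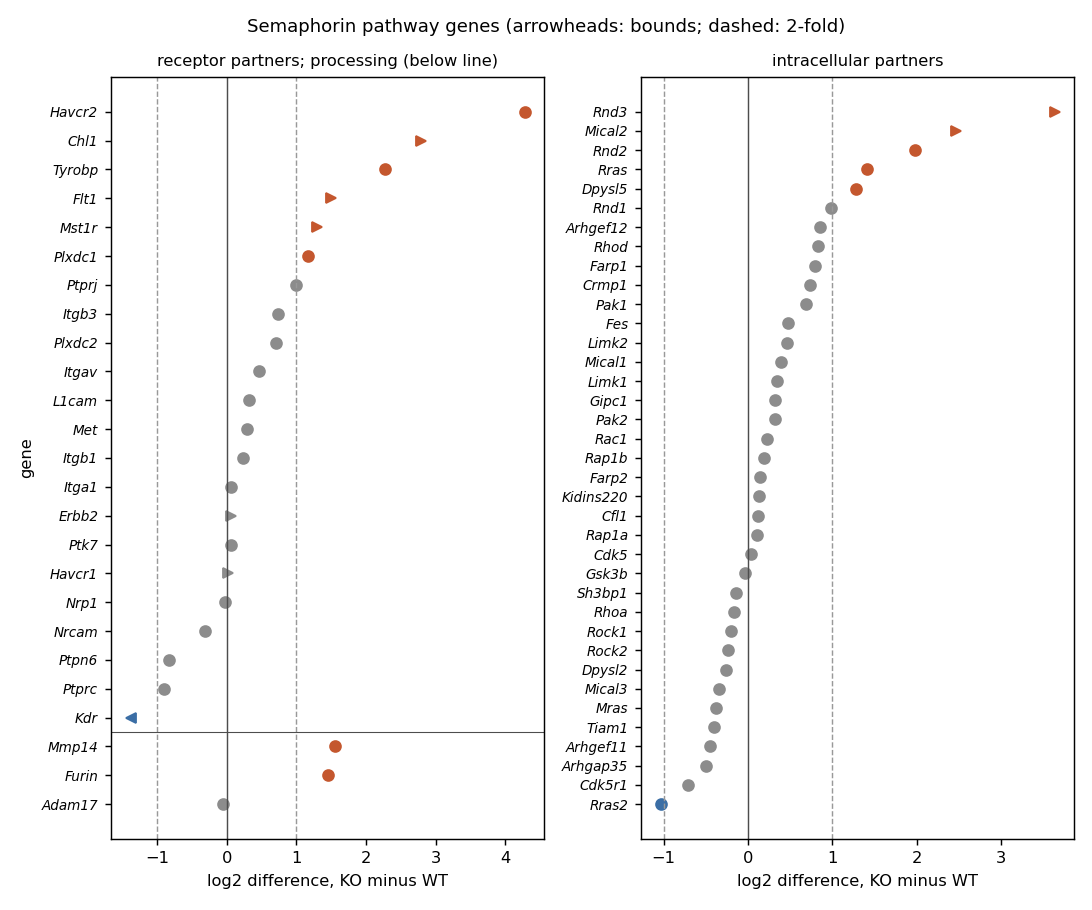
Log2 difference (KO minus WT) of the 62 pathway genes with a value, receptor partners and processing enzymes on the left and intracellular partners on the right. Circles were read on both arrays, arrowheads are bounds, orange and blue mark at least 2-fold higher and lower, and dashed lines mark 2-fold. Most intracellular partners lie between the dashed lines, with Rnd3, Mical2, Rnd2, Rras and Dpysl5 above.

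Other cell types also express these genes, so their markers are given beside them. Of all 13510 named genes with a value, 10.8% were at least 2-fold higher in KO and 5.14% lower. Those shares stand beside every marker count in this paragraph and the next. Of 8 B cell markers 7 were above background, and the signal summed over them was 1305 in WT and 2328 in KO. Cd79b and Blnk were the brightest, Ms4a1 and Fcer2a were at least 2-fold higher, and Pax5 was not above background. Of 10 macrophage and monocyte markers 8 were above background, 3 of them at least 2-fold higher (Cd14, Adgre1 and Fcgr3). Lyz2 was above background in WT only and at least 1.90-fold lower. Mpeg1 differed by -0.64, Csf1r by -0.39, C1qb by 0.002 and Ly6c2 by 0.34. The sum over the 8 was 90105 in WT and 115096 in KO, nearly all of it Ly6c2, a gene also made by T cells. The next brightest was Mpeg1 in WT (165) and Cd14 in KO (256, from 35.0 in WT), and Fcgr1 and C1qa were not above background. Of 7 dendritic cell markers 4 were read, with sums of 170 and 788, and Itgax alone was at least 2-fold higher. Xcr1 differed by -0.01 and Zbtb46 by 0.27, but a second probe of each was detected in WT only and was at least 2.65-fold and 7.72-fold lower. Clec9a had no probe, and Siglech and Cd209a were not above background.

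Natural killer cell markers summed to 2196 in WT and 7629 in KO over all 6, with Fcer1g, Klrb1c and Tyrobp at least 2-fold higher and Eomes lower. Mast cell and basophil markers summed to 103 and 648 over the 5 of 6 read, led by Fcer1a in WT and by Cpa3 and Mcpt8 in KO, and Ms4a2 was not above background. Of the 6 endothelial markers only Pecam1 and Kdr were read, with sums of 229 and 328, and Cdh5, Tek, Emcn and Cldn5 were not above background. Of 6 stromal markers 4 were read, with sums of 187 and 830, while Dcn and Pdgfra were not above background. Col1a2 was the brightest in WT and nearly level (142 and 157). Pdgfrb was not above background in WT and the brightest in KO (505), at least 35.7-fold higher. Lum read 21.1 in WT and 153 in KO (7.18-fold higher), and Col1a1 had a bound of at least 1.08-fold higher. Of 3 plasma cell markers Sdc1 and Jchain were read, with sums of 57.7 and 161, and Tnfrsf17 was not above background. Of 4 platelet markers Itga2b and Gp9 were read, with sums of 31.6 and 30.5, and Pf4 and Ppbp were not above background. The 10 T cell markers summed to 350601 and 278489. The part of any other cell type in the differences of Nrp2, Plxnb2, Plxnc1, Sema6b or the rest was not tested.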

How the data were processed

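Expression was measured on 2 Agilent one-colour arrays, 1 per genotype, the genotype being taken from the labels. Per the file headers, the scanner software was Agilent's, version 10.7.3.1 with annotation on mm9; the submitters' processing notes give version 10.7. The intensity the authors deposited for each spot is the software's processed signal. The headers list background subtraction and detrending, and no scaling between arrays. The authors' deposited value table holds log2 values, which equal log2 signal minus a constant per array within 0.01 for 99.7% of probes. Here, log2 signal minus each array's 75th percentile was used, over non-control spots without outlier flags. Of 43379 non-control spots, 59.5% (WT) and 63.5% (KO) were well above background, and none was saturated. Spots of a probe were averaged, and a gene took its brightest detected probe. A bound sets the bright array against the dim array's own value or its lowest detected level, whichever was greater.

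Names came from RefSeq accessions (GRCm38.p6), which matched 27050 of 41174 probes. Normexp (limma 3.58.1, offset 50) used median spot signals. Other steps ran in Python 3.11.15, and the procedure was tested on simulated data. The simulation shifted only brighter genes read on both arrays. It therefore did not cover bounds, such as that of Sema3b, or dim members such as Sema4b and Sema4g. The members, gene lists and alternatives were chosen with earlier results of these data known. All members were named; of the pathway list, the 12 largest differences of at least 2-fold. Of each marker list, the 2 brightest and those not above background were named. Other pathway genes, other markers and the neighbouring genes named were picked after their values were seen.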

Additional observations from a re-analysis of the deposited data

How the results depend on the processing

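Member values were recomputed under 10 alternatives (9 gave a value for Sema3b and 7 for Sema3c), 266 values with those of Men1 and Bach2. Of these, 226 moved by less than 0.160, the SD between repeated spots pooled over all signal levels. That limit is strict for dim spots (SD 0.504 under a signal of 30) and lenient for bright ones (0.0383 over 1000). Another 36 values moved further, and 4 calls changed sign. Those 4 came from normexp with backgrounds as given: Sema4b -0.66, Sema4g -0.98, Plxna3 -0.39 and Plxnb3 -0.43. The WT fit of that setting was -140.5, against -1.60 for KO, and became -12.9 with the 6 aberrant WT backgrounds replaced. Much of the 226 was fixed in advance: for a gene with 1 probe read on both arrays, the filters and the mean over probes changed nothing. Median centring, the authors' values and kept outlier flags shifted all genes nearly alike. With normexp backgrounds as given, differences under 2-fold that changed sign were not counted, such as Sema6a (-1.06), Plxna4 (-1.18), Sema6c (-0.35) and Sema4a (0.11). That setting also gave medians of -0.29 for semaphorins and -0.035 for receptors, 2 semaphorins higher and 4 lower, 3 receptors higher and 2 lower, and 4 pathway genes higher and 4 lower. Over all genes, 26.3% of those at least 2-fold apart were then higher, against 67.8% as reported. With the 6 aberrant WT backgrounds replaced (67.3% higher), the medians were 0.063 and 0.43, with 2 semaphorins, 3 receptors and 8 pathway genes higher and 1 pathway gene lower. With no filter on dim probes the receptor median was 0.57. Requiring both arrays above background, which tests fewer genes, left 1 semaphorin lower, and 8 pathway genes higher and 1 lower. The mean over probes left 1 pathway gene lower. At 4-fold, 2 semaphorins were higher and 1 lower, 2 receptors higher, and 5 pathway genes higher and 0 lower. At 1.5-fold, 22 pathway genes were higher and 5 lower. Shares over all genes were not computed at 4-fold or 1.5-fold, so these counts cannot be set beside genes in general. Quantile, median and loess scaling, the authors' values and kept outlier flags left every count within 1.5 times and each median within 0.160. Causes were not tested. No paired analysis was possible because each genotype has 1 array.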
